A study of Caenorhabditis elegans with 8 samples.

Results

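The 4 libraries of whole Caenorhabditis elegans at 5 days of age, of 8 libraries in the study, were compared as sets of neighbouring library number, 23 and 24 against 25 and 26. In each set 1 library came from worms given water and 1 from worms given arsenite, so treatment is balanced between the sets. The sets were chosen by their gene counts, in which the difference was noticed, and no label states them. For this reason every value that sets 23 and 24 against 25 and 26 is given as a description without a test. The measure is the whole-number read count of each gene, normalized by the TMM method and given as CPM, the count scaled to a common library total.

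All worms were hermaphrodites of the wild-type laboratory strain N2. The groups were water at 5 days (libraries 23 and 25), arsenite at 5 days (24 and 26), water at 1 day (31 and 33) and arsenite at 1 day (32 and 34), 2 libraries each. The labels give 100 nM for arsenite and, in the same form, for water. Separate cultures and collection days are not stated. A time of 24 h stands in the descriptions of the 1-day samples, with no word on what it measures, and in none of the 5-day samples. The spread behind each p-value is therefore that between libraries and may be technical.

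Adult worms are enclosed in a cuticle of collagens, which the epidermis makes in waves tied to the moults and early adulthood. The intestine is their main organ of digestion, fat storage, yolk production and detoxification, and it carries cytochrome P450 enzymes, which oxidize small molecules, and UDP-glucuronosyltransferases, which attach sugars to them. The intestine and epidermis also make antimicrobial peptides, lysozymes and C-type lectins, and the intestine oxidizes fatty acids during fasting. In RNA from whole worms, fewer cells of a type and less RNA per cell cannot be told apart.

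Cuticle collagen genes had the lowest list medians between the 5-day sets, and single genes of detoxification and fat use were among those furthest apart. Libraries 23 and 24 had higher levels of several P450 and UDP-glucuronosyltransferase genes and of a lysozyme and an antimicrobial peptide gene. They had lower levels of the acyl-CoA synthetase gene acs-2, the drug transporter gene pgp-1, genes for body shape collagens and a large part of the col collagens. Of 8615 genes with a mean of at least 5 CPM over the 4 libraries, 59 (0.685%) differed at least 1.5-fold in the same direction in water (23 against 25) and in arsenite (24 against 26). Of these, 25 (0.29%) were higher and 34 (0.395%) lower in 23 and 24. The same rule applied to arsenite against water within the sets found 2 of the 8615 genes (0.0232%). Because the minimum is a mean over all 4 libraries, 12 of the 59 (4 higher, 8 lower) reached it only through the set where they were high. Applied to libraries 31 and 32 against 33 and 34, the corresponding numbers at 1 day, it found 0 of 8689 genes.

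Most genes differed little. The median absolute log2 difference over genes was 0.0768 between libraries 23 and 24 and 0.0700 between 25 and 26, within the sets. Between the sets it was 0.101 for the water libraries and 0.0868 for the arsenite libraries. Among the 1-day libraries it was 0.0604 to 0.0758 for any pair. On the first principal component of the 5-day libraries, which held 60.7% of their variance, 23 and 24 scored -6.13 and -8.80 and 25 and 26 scored 10.05 and 4.89. Across the 8615 genes the water and arsenite differences between sets correlated at 0.544, against -0.0688 across 8689 genes for the 1-day libraries. Of those 8689, 47.1% had the same direction in water and arsenite at 1 day. Genes of 1 library share its depth and normalization, and are not independent replicates.

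**Figure D1:**
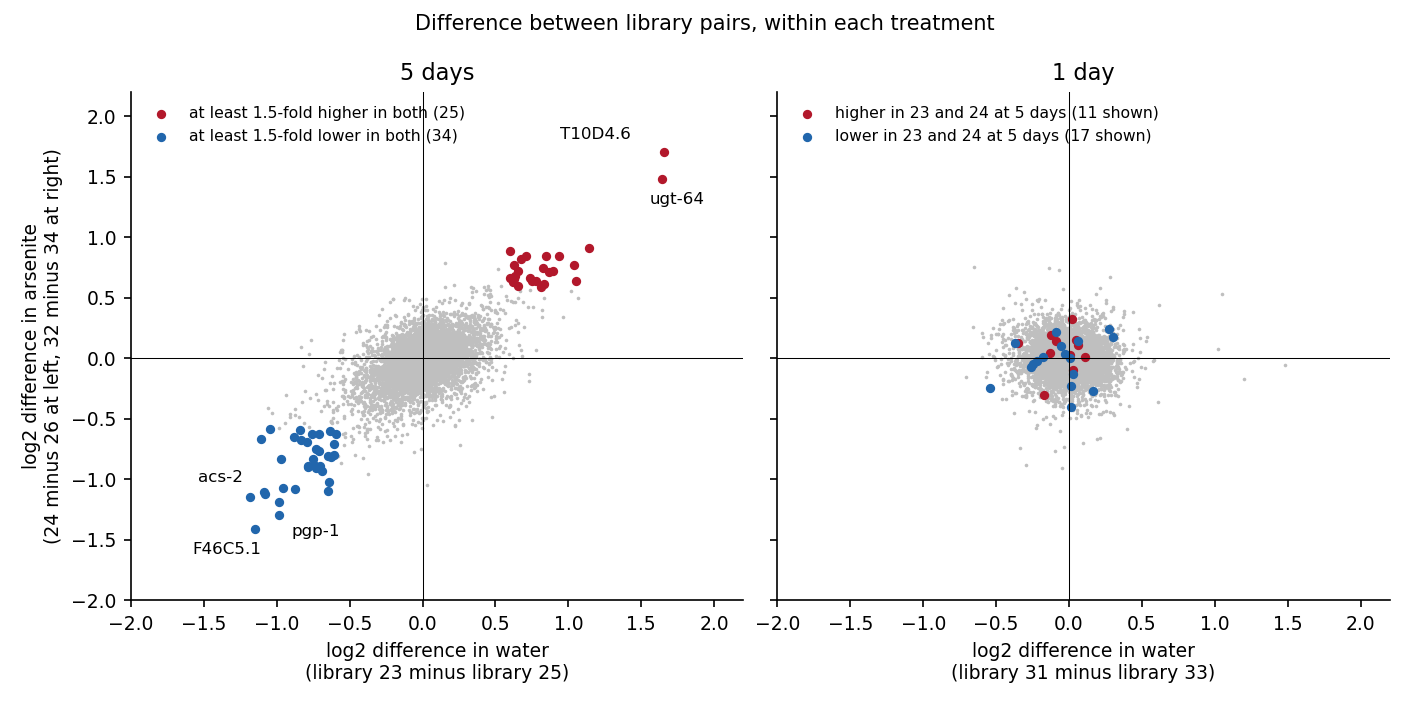
Log2 difference between library sets for each gene, in water on the x axis and in arsenite on the y axis, at 5 days (left) and between the corresponding numbers at 1 day (right). Grey points are genes with a mean of at least 5 CPM at that age. Coloured points are the genes at least 1.5-fold higher (25) or lower (34) in libraries 23 and 24 in both treatments, and those of them that reach 5 CPM at 1 day. The cloud is tilted at 5 days (correlation 0.544) and not at 1 day (-0.0688).

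Depth and composition were similar in the sets. Totals were 23171462 and 23891928 counts in 23 and 24 and 22800281 and 21598326 in 25 and 26, within a range of 21598326 to 27317490 over the 8 libraries. At these depths 5 CPM is about 118.3 counts, and counting alone gives the log2 difference between 2 such libraries a standard error of 0.188. Nuclear ribosomal RNA took 1.03% and 1.78% of counts in 23 and 24 and 1.202% and 1.586% in 25 and 26, higher in the arsenite library of each set. Messages of the mitochondrial genome took 0.966% and 1.05% against 0.862% and 0.943%. The genes' set difference correlated at -0.0804 (Spearman, 8571 genes) with exon length.

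The largest difference was in T10D4.6, on chromosome II from 3119332 to 3123183 (WBcel235). Its level was 82.0 and 83.5 CPM in libraries 23 and 24 and 25.99 and 25.57 CPM in 25 and 26. Libraries 23 and 24 were thus 3.15-fold higher in water and 3.27-fold higher in arsenite. The 4 libraries of 1 day lay between 23.3 and 24.9 CPM, with 25 and 26. The next gene, ugt-64, encodes a UDP-glucuronosyltransferase and lies on chromosome V from 3503080 to 3506352. It stood at 78.3 and 76.3 CPM in 23 and 24 against 24.9998 and 27.3 CPM in 25 and 26, a difference of 3.13-fold in water and 2.79-fold in arsenite. Here the 1-day libraries, at 72.3 to 82.7 CPM, lay beside 23 and 24 instead. The annotation places C07G3.10 over ugt-64, and since the strand setting of the counting is not given, reads of overlapping genes cannot be told apart. Such an overlap held for 15 of the 59 genes.

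Genes of small-molecule metabolism made up a share of the higher genes. Of 59 P450 and UDP-glucuronosyltransferase genes that reached 5 CPM, out of 141 on the list, 7 were at least 1.5-fold higher and 1 lower, beside 0.29% and 0.395% of all genes. Of the 7, 2 (ugt-66 and cyp-35B2) had a mean under 5 CPM in 25 and 26 and reached the minimum through 23 and 24. In both treatments 30 were higher to any extent and 15 lower, where all genes gave 36.4% and 28.2% (64.6% together). In all gene lists below, higher and lower count members with the same direction in both treatments. The list's median log2 difference was 0.13, and that of all genes 0.01. The families, separated after their values were seen, differed. Among 31 P450 genes 21 were higher and 2 lower, with a median of 0.22, whereas among 28 UDP-glucuronosyltransferase genes 9 were higher and 13 lower, with a median of -0.03, and 4 of the 9 passed 1.5-fold.

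The P450 gene cyp-35B1 stood at 63.8 and 63.7 CPM in 23 and 24 and at 35.7 and 41.6 CPM in 25 and 26. Its neighbour cyp-35B2, which begins 922 bases further along chromosome V, stood at 7.96 and 8.67 CPM against 4.97 and 4.91 CPM. Both lay higher in the first set in each treatment, and reads may be split between such related copies. Another P450 gene, cyp-29A4, had 10.1 and 11.98 CPM against 5.53 and 7.29 CPM. The exception in the family was cyp-13A5, at 49.2 and 36.2 CPM in 23 and 24 against 76.8 and 73.7 CPM in 25 and 26. It was the only P450 or UDP-glucuronosyltransferase gene at least 1.5-fold lower under the rule used here.

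Among the UDP-glucuronosyltransferases, ugt-41 had 49.9 and 51.6 CPM in 23 and 24 against 30.0 and 32.5 CPM in 25 and 26. The gene ugt-66 had 7.88 and 8.01 CPM against 4.37 and 4.46 CPM. Levels within a set differed little between water and arsenite in both genes. The short-chain dehydrogenase gene dhs-26 had 38.8 and 39.3 CPM against 18.9 and 23.1 CPM, and was at 0.254 to 0.901 CPM in the 1-day libraries. The gene far-3, of the family of proteins that bind fatty acids and retinol, had 181.5 and 188.1 CPM against 97.6 and 113.8 CPM, and its annotation overlaps that of far-5. All 4 genes were chosen for their set difference and were without overlap between the sets. So were all 59 genes under the rule, and 49.4% of all genes.

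Immune effector genes were mostly higher in 23 and 24, by small amounts. Of 35 effectors that reached 5 CPM, out of 123 listed, 21 were higher in both treatments and 4 lower, beside 36.4% and 28.2% of all genes. Their median log2 difference was 0.18, and 0.15 without the 2 whose mean was under 5 CPM in 1 set. The lysozyme gene lys-2, for an enzyme that cuts bacterial cell walls, stood at 62.3 and 60.7 CPM against 30.7 and 41.2 CPM. Its arsenite difference stayed under 1.5-fold. The antimicrobial peptide gene cnc-4 had 9.63 and 8.83 CPM against 4.63 and 5.67 CPM, and was the list's only member past 1.5-fold in each treatment. C-type lectins, sugar-binding proteins of which many respond to pathogens, went the other way in 26 of 46 members that reached 5 CPM, with 10 higher and a median of -0.11. The gene clec-7 stood at 14.8 and 13.8 CPM against 23.2 and 24.2 CPM, while clec-190 stood at 14.5 and 14.1 CPM against 9.39 and 8.91 CPM.

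**Figure D2:**
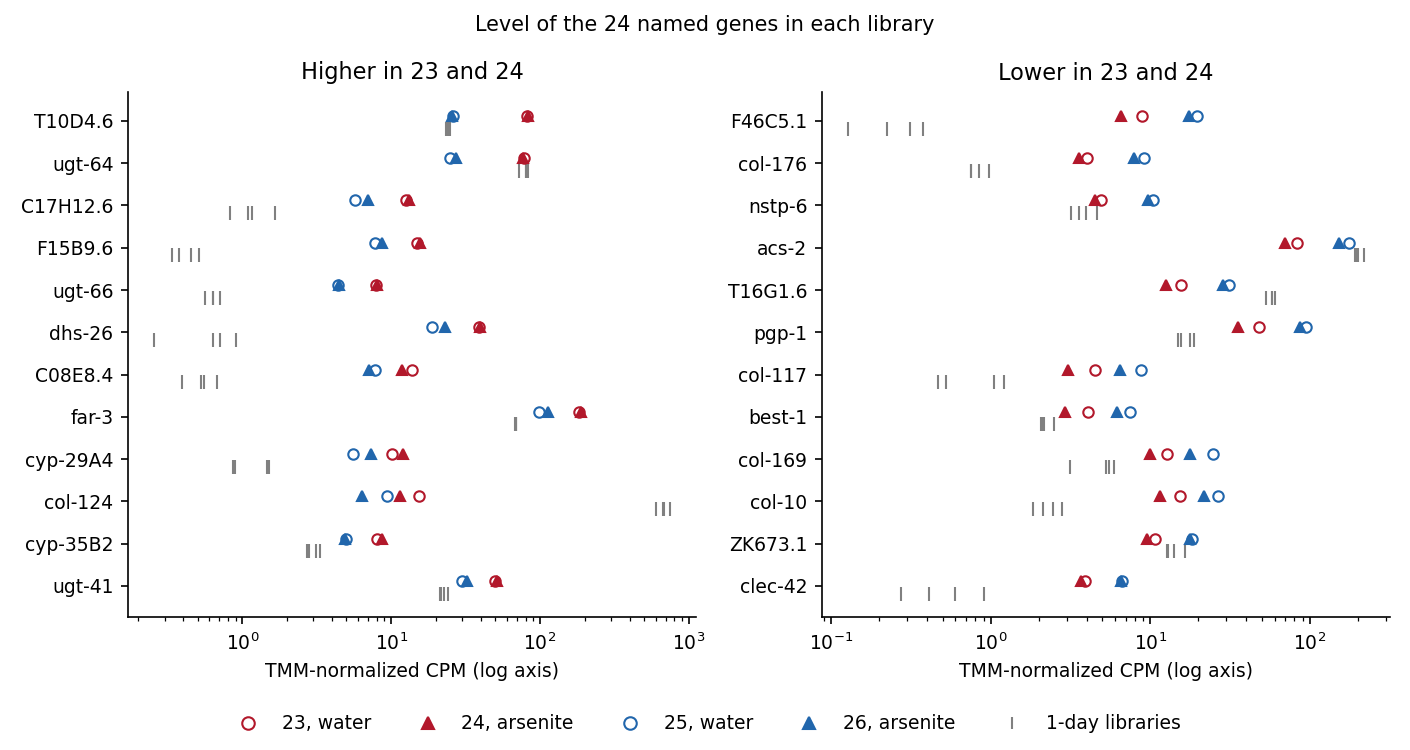
TMM-normalized CPM (log axis) of the 12 genes with the largest difference in each direction, ranked by the smaller of the differences in water and in arsenite. Open circles are water and triangles arsenite, red for libraries 23 and 24 and blue for 25 and 26, and grey ticks are the 4 libraries of 1 day. The sets do not overlap in any of these genes, which were chosen for that difference, and the 1-day libraries lie on either side.

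Several genes of fat use and transport were lower in 23 and 24. The acyl-CoA synthetase gene acs-2, which feeds fatty acids into mitochondrial oxidation and is induced by fasting, stood at 83.4 and 70.2 CPM against 176.6 and 152.9 CPM. Libraries 25 and 26 were 2.12-fold higher in water and 2.18-fold higher in arsenite. The 1-day libraries held 192.7 to 218.2 CPM, above all 4 libraries of 5 days. Among 15 acs genes, a family separated after its values were seen, 5 were higher and 7 lower, with a median of -0.004. The fasting-induced lysosomal lipase gene lipl-5 had 209.1 and 195.3 CPM against 302.1 and 307.1 CPM, and icl-1, for the glyoxylate cycle enzymes that turn fat into sugar, had 344.1 and 324.9 CPM against 457.5 and 419.4 CPM. Neither passed 1.5-fold in each treatment. Of 20 fasting and fatty acid oxidation genes, 13 were lower and 6 higher in both treatments, with a median log2 difference of -0.07.

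The intestinal P-glycoprotein gene pgp-1, an exporter of foreign compounds, had 47.9 and 35.3 CPM in 23 and 24 against 94.9 and 86.6 CPM in 25 and 26. This is a difference of 1.98-fold in water and 2.45-fold in arsenite. Among 10 pgp genes, also separated after their values were seen, 4 were higher and 3 lower, with a median of -0.003. The excretory aquaporin gene aqp-8 had 32.9 and 32.01 CPM against 53.8 and 49.3 CPM, with 90.4 to 105.0 CPM at 1 day. The nucleotide sugar transporter gene nstp-6 had 4.92 and 4.50 CPM against 10.5 and 9.68 CPM. It lies 24 bases from B0212.3, which was lower too, at 23.9 and 22.1 CPM against 36.96 and 38.8 CPM. The largest difference in this direction was in F46C5.1, with 8.84 and 6.54 CPM against 19.6 and 17.4 CPM and 0.127 to 0.375 CPM at 1 day.

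Among the gene lists, col collagens of the cuticle gave the most genes at least 1.5-fold lower. Of 44 col collagens that reached 5 CPM, out of 156, 29 were lower in both treatments and 14 higher. Their median log2 difference was -0.47, with -0.47 in water and -0.34 in arsenite. At least 1.5-fold lower were 7, and 1 was higher. Of the 7, 2 (col-176 and col-117) had a mean under 5 CPM in 23 and 24, and without the 3 col genes that reached the minimum through 1 set the median was -0.35. Of these 44, 23 had no overlap with lower values and 13 with higher values, beside 21.3% and 28.1% of all genes, 49.4% together. The sets did not follow 1 direction throughout the family. Summed over all 156 genes the list held 1262 and 1156 CPM in 23 and 24 and 1355 and 1126 CPM in 25 and 26, so the sums overlapped.

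The direction followed the level of each gene at 1 day, in libraries that the choice of sets did not use. The 20 col genes under 10 CPM at 1 day included 19 lower in 23 and 24 and 1 higher. Their median was -0.65 (-0.78 in water and -0.48 in arsenite), with a range of -1.16 to 0.03. In this class, col-176 (-1.16) and col-117 reached a mean of 5 CPM only through 25 and 26, which favours a lower value. The 19 genes with at least 100 CPM at 1 day included 12 higher and 6 lower, with a median of 0.27 and a range of -0.78 to 0.78. The 5 genes between had a median of -0.04. Across the 44 genes the set difference and the log2 level at 1 day correlated at 0.754 (Spearman 0.728). These classes were set after the values were seen, and the genes share the same 8 libraries. Classes and correlation were not recomputed without the 3 col genes that reached the minimum through 1 set.

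In the class under 10 CPM at 1 day, col-10 stood at 15.3 and 11.5 CPM in 23 and 24 against 26.5 and 21.6 CPM in 25 and 26. It is the last of a run with col-144 and col-145 on chromosome V from 9159586 to 9165307, and all 3 passed 1.5-fold lower. The gene col-176 stood at 4.00 and 3.56 CPM against 9.09 and 7.88 CPM. In the class of at least 100 CPM, col-181 had 126.8 and 131.9 CPM against 92.8 and 87.2 CPM, and col-124 had 15.5 and 11.5 CPM against 9.43 and 6.39 CPM. The mean of col-124 at 1 day was 675.3 CPM. Against this direction, col-93, at 620.5 CPM at 1 day, had 10.8 and 9.08 CPM against 21.3 and 13.5 CPM at 5 days.

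**Figure D3:**
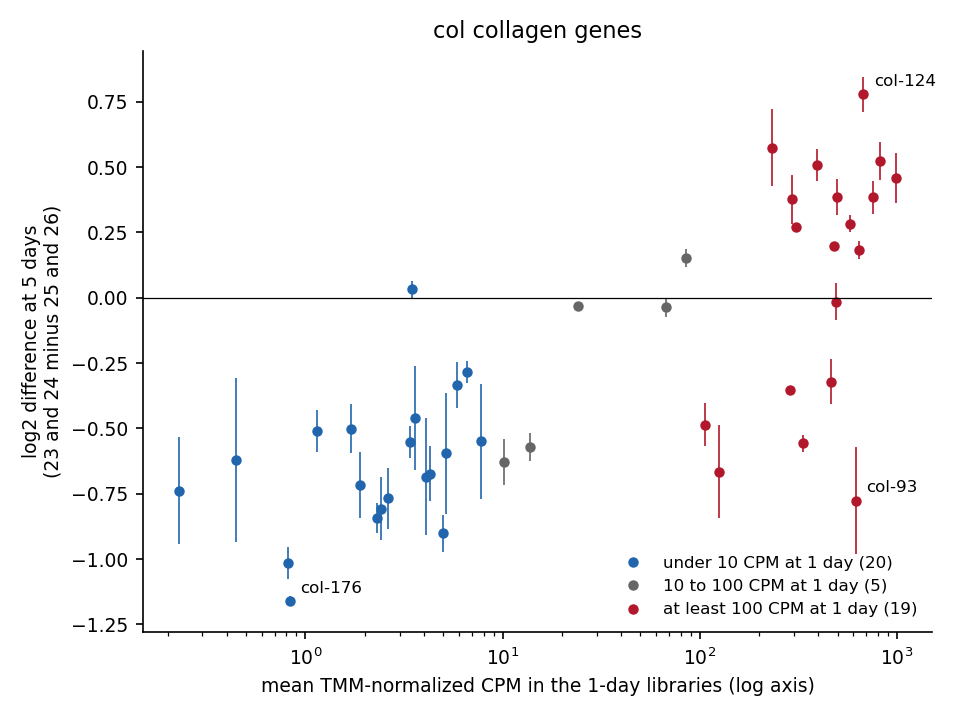
Set difference at 5 days (log2, 23 and 24 minus 25 and 26) of 44 col collagen genes against their mean TMM-normalized CPM in the 4 libraries of 1 day (log axis). Points are means of the water and arsenite differences and vertical lines join these differences. Genes under 10 CPM at 1 day lie below 0 in 19 of 20 cases, and 12 of the 19 genes with at least 100 CPM were higher in both treatments. The 44 genes include 3 that reached the minimum mean of 5 CPM through 1 set.

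Body shape, furrow and blister collagens, which set the form of the cuticle, were lower in 14 of 15 members that reached 5 CPM and higher in 0. Their median was -0.43, with -0.62 in water and -0.33 in arsenite. The body shape collagen gene dpy-13 stood at 9.34 and 7.89 CPM in 23 and 24 against 20.2 and 12.5 CPM in 25 and 26. The gene rol-6 stood at 5.50 and 4.91 CPM against 10.1 and 6.80 CPM. In each, library 25 was the highest, and only dpy-13 passed 1.5-fold in both treatments. Larval moulting genes were lower in 15 of 17 and higher in 1, with a median of -0.22, and cuticlins and other cuticle proteins were lower in 5 of 6. The moulting gene mlt-11, a protease inhibitor of the epidermis, had 57.1 and 57.7 CPM against 80.2 and 69.5 CPM. Hedgehog-related genes, which are expressed in the epidermis, gave 8 higher and 8 lower of 26. Of the 26, 2 (grl-16 and grd-10) were at least 1.5-fold lower, beside 0.395% of all genes. The mean of grd-10 was under 5 CPM in 23 and 24, so it reached the minimum through 25 and 26.

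**Figure D4:**
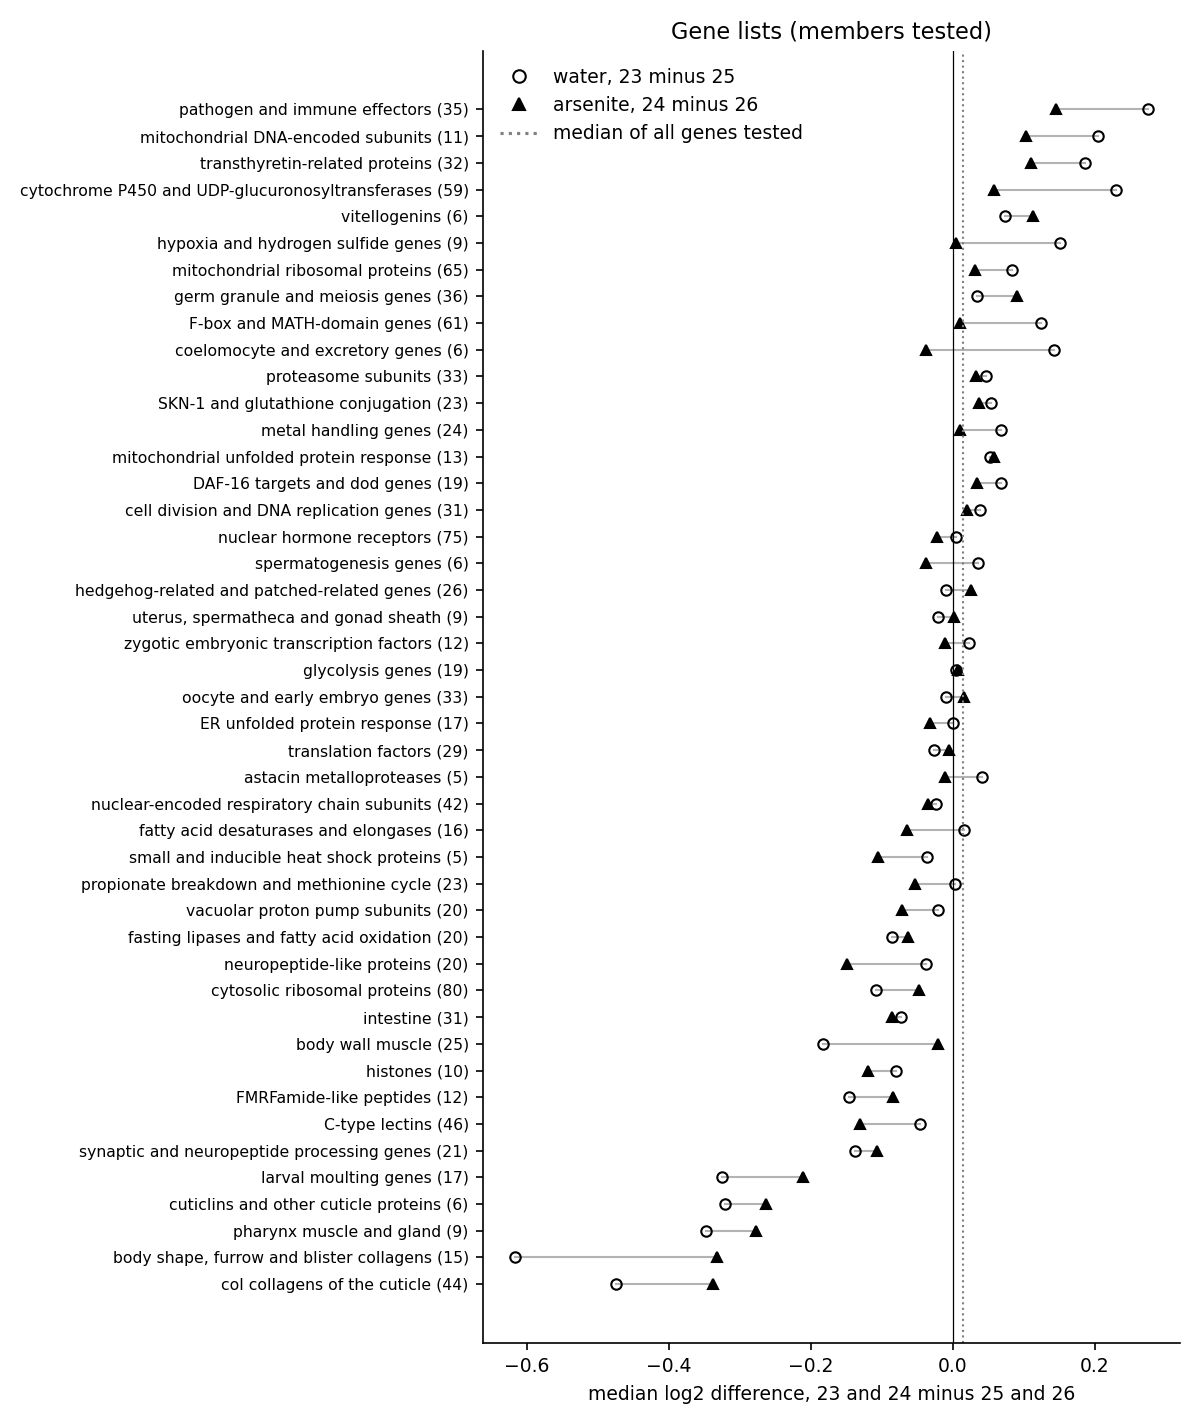
Median log2 difference of each gene list with at least 5 members at 5 CPM or more, in water (open circles, 23 minus 25) and in arsenite (triangles, 24 minus 26). The number of members is in parentheses and the dotted line is the median of all 8615 genes. The cuticle collagen lists lie lowest and the immune effector list highest. Without the 2 effectors whose mean was under 5 CPM in 1 set, the effector median was 0.149. That of mitochondrial DNA-encoded subunits was 0.151.

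Markers of some other tissues moved with the sets, read against 36.4% higher and 28.2% lower among all genes. Pharynx muscle and gland genes were lower in 7 of 9 and higher in 1, with a median of -0.31. The pharyngeal myosin gene myo-2 stood at 91.3 and 89.2 CPM against 130.6 and 114.2 CPM. Body wall muscle genes were lower in 12 of 25 and higher in 1, with a median of -0.18 in water and -0.02 in arsenite, and their summed level was 3279 and 3252 CPM against 3641 and 3298 CPM. Synaptic and neuropeptide processing genes were lower in 15 of 21 and higher in 0, with a median of -0.13. Intestine genes were lower in 20 of 31 and higher in 8, with a median of -0.09, and their summed level was 6275 and 6001 CPM against 6853 and 6672 CPM. Lists with few members varied. Touch receptor neuron genes gave 0 higher and 2 lower of 3, larval and male markers 1 and 2 of 3, and major sperm proteins 0 and 1 of 1. Some other lists gave equal counts in each direction. Uterus, spermatheca and gonad sheath genes gave 3 higher and 3 lower of 9, with a median of 0.0017, coelomocyte and excretory genes 1 and 1 of 6, with a median of 0.05, and glia and sheath cell genes 0 and 0 of 2. No muscle, synaptic, intestine or pharynx marker was at 0 in all 4 libraries of 5 days. The part of tissue proportions in the differences above was not tested.

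Genes of the germ line were nearly level between the sets. Germ granule and meiosis genes were higher in 22 of 36 and lower in 4, but with a median of 0.06. Oocyte and early embryo genes were higher in 10 of 33 and lower in 11, with a median of 0.00, and their summed level was 21931 and 21864 CPM against 22291 and 21855 CPM. The yolk protein genes divided. Levels of vit-3 were 803.8 and 930.8 CPM against 607.8 and 685.9 CPM, and those of vit-6 were 25216 and 26194 CPM against 29424 and 28484 CPM. The 6 yolk genes together took 6.23% and 6.48% of counts against 6.68% and 6.62%. Cytosolic ribosomal protein genes were lower in 54 of 80 and higher in 7, with a median of -0.08, whereas mitochondrial ribosomal protein genes were higher in 32 of 65 and lower in 9, with a median of 0.07.

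Metal handling genes had a median log2 difference of 0.04, and small and inducible heat shock protein genes one of -0.04. Of 24 metal handling genes 11 were higher and 5 lower, beside 36.4% and 28.2% of all genes. Of the 24, 0 passed 1.5-fold in both treatments, where 0.685% of all genes did, so this count does not set them apart. The metallothionein gene mtl-1, which binds metals, stood at 78.0 and 68.4 CPM against 53.2 and 52.0 CPM. Ferritin gene ftn-1, for iron storage, stood at 33.6 and 36.9 CPM against 27.4 and 27.7 CPM. Both were named for the size of their set difference, and lay higher in 23 and 24 without overlap. Of the 24 genes, 10 lay higher and 4 lower without overlap, beside 28.1% and 21.3% of all genes. Of 5 small and inducible heat shock protein genes that reached 5 CPM, 3 were lower and 0 higher.

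The 59 genes were all annotated as protein coding. Their mean log2 differences ran from 0.62 to 1.68 in the higher genes and from -1.28 to -0.61 in the lower genes. Chromosome V held 13 of the higher genes (0.937% of 1388) and 12 of the lower (0.865%), and chromosome III held 1 and 0 of 1581. At 1 day, 31 of the 59 had a mean under 5 CPM. The last gene inside the rule on the higher side was ugt-25, at 1.76-fold in water and 1.51-fold in arsenite, and the first outside was T22B7.7, at 1.66-fold and 1.48-fold. On the lower side they were grd-10, at 2.06-fold and 1.502-fold, and C17F4.7, at 1.498-fold and 1.75-fold, just under the limit in water. Left with the arsenite difference alone (without library 23 or 25) the rule gave 104 genes, and with the water difference alone (without 24 or 26) 137.

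Whether the corresponding numbers at 1 day also differed can be tested, since those libraries did not enter the choice. In a fit over all 8 libraries, libraries 31 and 32 differed from 33 and 34 in 0 of 14449 genes (0%) by edgeR's quasi-likelihood test, and 607 had an unadjusted p under 0.05. DESeq2 called 0 and limma voom 1. The smallest p on the higher side belonged to rrn-2.1 (log2 difference 0.36, SE 0.07, edgeR adjusted p = 0.2595), KEF34_r01 (0.52, SE 0.10) and F58D5.5 (0.36, SE 0.08). On the lower side they were cut-3 (-0.53, SE 0.12), mtl-1 (-0.60, SE 0.14) and gba-4 (-0.39, SE 0.10). None of these 6 passed. The mean set difference at 5 days had the opposite sign in rrn-2.1 (-0.08), F58D5.5 (-0.23) and mtl-1 (0.47). It had the same sign in KEF34_r01 (0.16), cut-3 (-0.28) and gba-4 (-0.80). The count was 6, 2, 2 and 7 without library 23, 24, 25 and 26, and 33, 103, 36 and 103 without 31, 32, 33 and 34, fits that leave 1 residual degree of freedom.

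The 59 genes themselves gave values of either sign at 1 day. The 25 higher genes had a median log2 difference of -0.04 between 31 and 32 and 33 and 34, with 12 positive and 13 negative values between -0.76 and 0.29. The 34 lower genes had a median of -0.07, with 15 positive and 19 negative values between -0.61 and 0.39. Of the 59, edgeR called 0, as it did among all 14449 genes. An unadjusted p under 0.05 was found for 3 of the higher and 5 of the lower, beside 607 of the 14449. Whether the set difference at 5 days exceeded that at 1 day was not tested.

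The arsenite contrast at 5 days is balanced over the sets, and fitting the sets as a term changed its spread. The biological coefficient of variation, the typical variation between libraries beyond counting, was 5.883% over 8 libraries without set terms and 4.353% with them. In the 5-day libraries alone it fell from 7.302% to 3.659%, and in the 1-day libraries alone it was 4.437% without and 4.842% with the term. With the terms, 22 of 14449 genes (0.152%) passed edgeR's test between arsenite and water at 5 days, 14 higher and 8 lower in arsenite, and without them 2 (0.0138%). An unadjusted p under 0.05 was found for 965 and 573 genes. The sets were chosen on these same counts, so the smaller spread and the calls gained are not independent of that choice, and the adjusted p without the terms is given beside them.

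In the fit with set terms, the genes higher in arsenite included ribosomal RNA and mitochondrial transcripts. The mitochondrial ribosomal RNA KEF34_r01 stood at 49.1 and 37.5 CPM in water (23 and 25) and at 71.3 and 74.5 CPM in arsenite (24 and 26), and rose by 0.76 on the log2 scale (SE 0.08, edgeR adjusted p = 0.0001042 with set terms and 0.9994 without). The gene ncl-1, which limits the size of the nucleolus, had 105.9 and 115.1 CPM in the water libraries and 149.7 and 149.6 CPM in the arsenite libraries, a rise of 0.44 (SE 0.06, adjusted p = 0.0001042 with and 0.004667 without). Its arsenite levels were nearly the same in the sets. The nuclear ribosomal RNA gene rrn-3.1 had 9886 and 11732 CPM with water and 17370 and 15395 CPM with arsenite (0.60, SE 0.09, adjusted p = 0.001611 with and 0.9994 without), and rrn-2.1 rose by 0.57 with the terms (0.9994 without). The mitochondrial complex I subunit gene ND5 had 184.9 and 153.5 CPM with water and 289.4 and 265.6 CPM with arsenite (0.72, SE 0.09, adjusted p = 0.01386 with and 0.9994 without). The pseudogenes WBGene00004677 and WBGene00014294 rose by 0.72 and 0.62, and set-25, for a histone H3 methyltransferase, by 0.37 (SE 0.07). Without the terms their adjusted p was 0.2789, 0.04164 and 0.2789. Because mRNA was selected in the library kit, ribosomal RNA measures what remained after selection.

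Of the 8 genes lower in arsenite, among 14449 tested with set terms, 4 were col collagens. How many of the 156 listed col genes were among those tested was not counted, so no share of the family is given. None of the 4 passed without the terms. The gene col-17 had 20.5 CPM with water and 14.1 CPM with arsenite in the first set and at 30.8 and 19.04 CPM in the second. Both arsenite libraries lay below both water libraries, with library 26 close to library 23. Its log2 change was -0.62 (SE 0.11, edgeR adjusted p = 0.005717) with set terms, and without them the adjusted p was 0.9994. The gene col-39 stood at 12.84 and 7.97 CPM in the first set and 18.7 and 13.1 CPM in the second, a log2 change of -0.59 (SE 0.11, adjusted p = 0.02006), and col-73 at 17.1 and 13.2 and at 30.3 and 17.02 CPM, a log2 change of -0.62 (SE 0.12). The gene col-49 fell most, with a log2 change of -1.53 (SE 0.32), from 1.75 and 1.46 CPM in water to 0.654 and 0.450 CPM in arsenite. These levels are low, under the minimum of 5 CPM used for the set differences. Without the terms the adjusted p was 0.9994 for col-39 and col-73 and 0.2789 for col-49.

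The others were ZK180.6 (-0.71, SE 0.14), ZK180.5 (-0.41, SE 0.08), ifc-1, an intermediate filament gene (-0.47, SE 0.10), and the transthyretin-related gene ttr-15 (-0.26, SE 0.05). None of these 4 passed without the terms (adjusted p of 0.6399 for ttr-15 and 0.9994 for the others). The genes ifc-1 and ZK180.5 were also among the 34 lower in libraries 23 and 24. ZK180.5 had 32.4 and 24.2 CPM in water and arsenite of the first set and 53.8 and 40.6 CPM in the second, so that the set difference of -0.74 was larger than the arsenite difference of -0.41. The test of whether the arsenite effect differed between 5 days and 1 day called 0 genes, with 608 at an unadjusted p under 0.05. DESeq2 with the same terms called 2 genes in the arsenite contrast at 5 days and limma voom 19. Leaving out library 23, 24, 25 or 26 gave 11, 9, 10 and 25 calls, and leaving out 31, 32, 33 or 34 gave 121, 120, 120 and 120.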

How the data were processed

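Messenger RNA libraries were made with Illumina's singleplex kit, per the labels' protocols. The deposited table holds whole-number counts for 46748 WormBase genes; the submitters' processing notes name CASAVA 1.7, STAR 2.4.1d, featureCounts 1.4.6-p4 and the build WBcel235. For the strand setting and multiply matching reads, nothing is stated in these sources. A deposited RPKM table was not used. Names and coordinates came from reference tables of the same build (43693 identifiers by name table, 33 by overlap with RefSeq, 3022 kept as identifiers).

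Counts were analysed in R 4.3.3. Genes were kept with filterByExpr (minimum count 10, total 15), which left 14449, and CPM are TMM-normalized, with a prior count of 0.5 in log2 values. Gene lists give members with a mean of at least 5 CPM over the 4 libraries of 5 days, and "higher" or "lower" there means the same direction in water and in arsenite. Tests were edgeR 4.0.16 quasi-likelihood tests (robust) over all 8 libraries with 4 group means and 1 term per age for library-number sets, with Benjamini-Hochberg adjustment over all genes and a threshold of 0.05. DESeq2 1.42.0 and limma 3.58.1 voom were alternatives. The programs were tested on simulated data.

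The sets, the 52 gene lists and the tests were chosen with earlier results of these data known. Named genes are the 12 in each direction with the largest smaller-of-the-treatments difference, up to 4 members per list ranked likewise, and called genes of largest fold, up to 8 in each direction for arsenite. For the 1-day sets they are the 3 of smallest p in each direction. Singled out after their values were seen were col-181, col-93, col-144, col-145, cyp-35B1, cyp-13A5 and B0212.3.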

Additional observations from a re-analysis of the deposited data

How the results depend on the processing

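The count of 59 genes apart between the 5-day sets became 58 with DESeq2 size factors, 57 with library totals and 58 with a prior count of 2, and the median of all genes moved by less than 0.1 (log2). It was 164 with a minimum mean of 1 CPM (47 higher, 117 lower), 16 with 20 CPM, 6 at 2-fold, and 104 to 137 on leaving out a library. No gene named by rank for its set difference changed direction with DESeq2 size factors, library totals or a prior count of 2. These genes were chosen for the same direction in both treatments, so leaving out a library could not change it. The other settings were not applied to single genes. The median of the insulin-like peptide list, 0.25 over 2 members, turned to -0.056 with a minimum mean of 1 CPM, where more members enter.

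The 22 arsenite calls at 5 days became 2 without set terms (no replicate block), 21 with the 5-day term alone, 22 with DESeq2 size factors, 72 without the filter, 2 by DESeq2, 19 by limma voom, 124 in the 5-day libraries alone, and 9 to 121 on leaving out a library. The 0 calls between the 1-day sets became 9 without the filter, 1 by limma voom, 1 in the 1-day libraries alone, 0 by DESeq2, and 2 to 103 on leaving out a library. Fits that leave out a library, or use 1 age alone, have 1 residual degree of freedom, and after leaving out a 5-day library the arsenite contrast rests on the other set. Over 15 alternatives ncl-1 was called in 15 (adjusted p up to 0.04346), KEF34_r01 and WBGene00004677 in 13, ND5 in 12, col-17 and col-73 in 11, col-39 in 9, col-49 in 8 and rrn-3.1 in 5. The cause was not tested. The labels give no replicate numbers, and the set terms follow library numbers in the titles, so that the fit of 22 calls is the paired one.

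For genes near 5 CPM, counting alone gives a difference between 2 libraries a standard error of 0.188 (log2), and each set holds 1 library per treatment.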

Other observations

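Gene groups outside the comparisons above gave small set differences at 5 days. Transthyretin-related genes, extracellular proteins of a large nematode family, were higher in 20 of 32 members and lower in 6, with a median log2 difference of 0.15, and ttr-25 stood at 20.2 and 20.9 CPM in libraries 23 and 24 against 14.6 and 14.6 CPM in 25 and 26. F-box and MATH-domain genes were higher in 28 of 61 and lower in 9, with a median of 0.05. Proteasome subunit genes were higher in 21 of 33 and lower in 5, with a median of 0.05. Vacuolar proton pump subunits were lower in 13 of 20 and higher in 1, with a median of -0.06. FMRFamide-like peptide genes were lower in 6 of 12 and higher in 1. Glycolysis genes had a median of 0.00, with 7 of 19 higher and 4 lower. These lists hold members at 5 CPM or more, and 36.4% of all genes were higher and 28.2% lower.

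Among the genes at least 1.5-fold higher in 23 and 24, the arsenite-minus-water log2 difference had a median of 0.03 in that set and 0.11 in 25 and 26. Among the lower genes it was -0.27 and -0.19. These medians were not tested.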
